A study of Caenorhabditis elegans with 10 samples.

Results

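The same 2 h step of the larval cycle of Caenorhabditis elegans was sampled at both of its repeats: from 24 h to 26 h, and, 8 h later, from 32 h to 34 h. The step is held by 4 libraries, chosen by their labelled time, out of 10 in the series. Each library is of ribosome footprints, short stretches of mRNA protected by a ribosome at work, from whole worms of N2, the standard wild-type strain. Eggs hatched overnight, and the first-stage larvae were plated on NA22 bacteria and grown without a break until harvest, so all groups share strain, food and handling and differ in the time since plating. Each time has 1 library, and the labels do not state whether each was a culture of its own, so p-values measure only the spread between single libraries. In whole worms, fewer cells of a type and less RNA per cell cannot be told apart, and with footprints alone a change in mRNA cannot be told apart from a change in its translation.

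Larvae of Caenorhabditis elegans moult at the end of every larval stage. Within each cycle the epidermis secretes a temporary matrix, the precuticle, then the collagens and other proteins of the next cuticle in a set order, and finally the proteases that free the old cuticle. The pharynx renews its own lining, made mostly of other proteins, in the same cycle.

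The 4 libraries held 16723638 counts (24 h), 33696423 (26 h), 22079848 (32 h) and 28494156 (34 h). Levels are given as CPM, counts per 1000000 footprints after TMM scaling, and are not corrected for gene length. Changes are log2 differences of CPM with a prior count of 2 added, and folds come from the same values. Of 20182 genes in the table, 13615 were tested. The median gene changed by 0.00 log2 in the first step and 0.03 in the second, and by -0.13 and -0.17 with total counts alone. Defining genes of the tissues of a worm were read in all 4 libraries, among them unc-54 of body-wall muscle, rab-3 of neurons, elt-2 of the intestine, glh-1 of the germline and lin-26 of the epidermis.

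The step brought a large exchange of genes, and it did so at both repeats. At least 1 log2 (2-fold) of increase was seen in 1076 genes in the first step and 1835 in the second. Of these, 805 were shared (5.91% of tested genes), which is 74.8% of the first and 43.9% of the second. At least 1 log2 of decrease was seen in 795 and 829 genes. The 538 shared ones (3.95% of tested genes) are 67.7% of the first and 64.9% of the second. Changes of 1 log2 or more in opposite directions were far fewer: 20 genes went up and then down, and 31 went down and then up. Across the 13615 genes the changes of both steps had a Pearson correlation of 0.757, and 0.831 over the 8298 genes that reached 10 CPM in one of the 4 libraries. The steps share no library, but genes are not independent replicates, so the correlation is a description.

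How many of these changes pass a test depends on which libraries give the error. A fit of all 10 libraries, with the place in the 8 h cycle and the cycle as terms, called 5 genes higher (0.0367% of those tested) and 0 lower (0.00%) at an adjusted p under 0.05 with at least 1 log2 in each step (edgeR's quasi-likelihood test, Benjamini-Hochberg adjustment). At an unadjusted p under 0.05 it gave 1825 higher and 1325 lower. DESeq2 on the same libraries called 552 and 308. The same terms in the 4 libraries of the step alone called 748 higher (5.49%) and 496 lower (3.64%). That fit takes a gene's own error from how far the second step departed from the first, with 1 residual degree of freedom. The test draws this error towards the spread across genes (median of 5.68 prior degrees of freedom), so its p-values rest largely on other genes. The 4-library fit called 0 genes once the cycle term was dropped. Without the 18 h library, which has the same place in the cycle as 26 h and 34 h, the fit of the other libraries called 523 higher and 218 lower, of which 512 and 214 were among the 748 and 496. Below, "rose" and "fell" stand for the calls of the 4-library fit, its adjusted p is the one printed unless stated, and counts in gene lists are to be read against its 5.49% and 3.64%. Among the 748 and 496 genes the adjusted p of the 10-library fit had medians of 0.111 and 0.118.

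**Figure D1:**
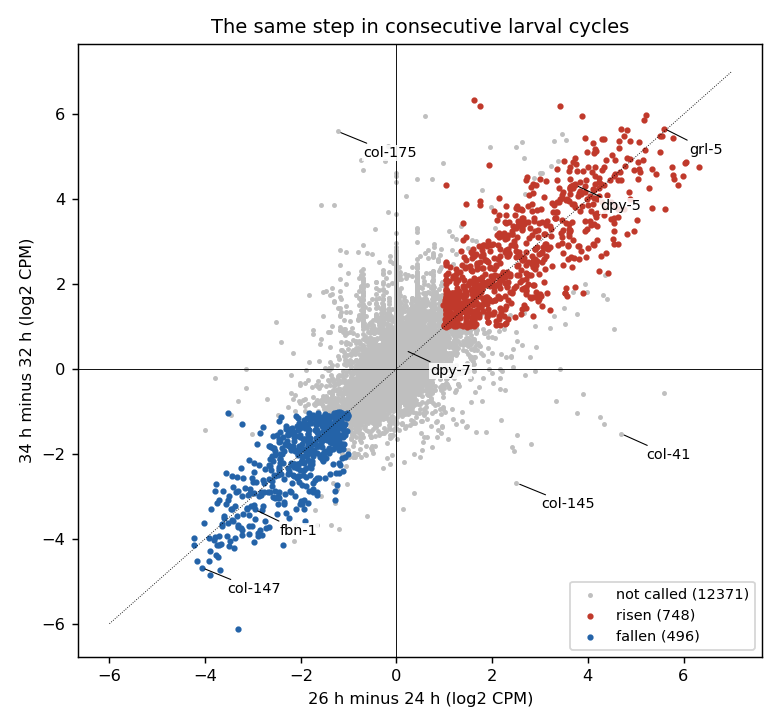
Change of each of the 13615 tested genes from 24 h to 26 h (horizontal, log2 CPM) and from 32 h to 34 h (vertical, log2 CPM), 1 point per gene. Colours mark the 748 genes called higher and the 496 called lower in the fit of the 4 libraries; most points lie along the diagonal, with a Pearson correlation of 0.757.

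The 5 genes that passed the fit of all 10 libraries were clec-86, cest-1.2, H25K10.1, col-138 and col-120. clec-86, which encodes a C-type lectin-like protein, had 5.43 CPM at 24 h, 23.02 at 26 h, 8.79 at 32 h and 27.4 at 34 h (10-library adjusted p = 0.0444). cest-1.2, which encodes a carboxylesterase family member, had 8.90, 24.8, 10.5 and 27.3 CPM at those times (10-library adjusted p = 0.0464). H25K10.1 had 8.57, 26.6, 15.3 and 47.04 CPM (10-library adjusted p = 0.0297). In these 3 genes both libraries after the step were above both before it, which the rule for a call makes likely. The collagen genes col-138 and col-120 differed, since their levels at 32 h and 34 h were far above those 8 h earlier. col-138 had 0.326 CPM at 24 h and 7.29 at 26 h, then 144.8 at 32 h and 5135 at 34 h (10-library adjusted p = 0.00568). col-120 was at 0 counts at 24 h and 6 at 26 h, and then went from 0.586 to 54.6 CPM (10-library adjusted p = 0.0444).

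By the rule that chose them, the genes that rose had to make up a larger part of all footprints after each step. Together they held 1.87% of counts at 24 h and 11.1% at 26 h, then 1.66% at 32 h and 12.1% at 34 h. The genes that fell, chosen by the mirrored rule, went from 2.74% to 0.561% and from 3.49% to 0.544%. The median increase was 2.27 log2 (4.81-fold) in the first step and 2.40 (5.26-fold) in the second, and the median of the absolute difference between a gene's steps was 0.49 log2. The median decrease was -1.90 and -1.87 log2, with a median absolute difference of 0.37. A call favours genes whose steps are alike, so these differences do not measure how well the steps repeat. The smaller of the 2 changes was at least 2 log2 in 365 of the risen genes and at least 4 log2 in 70, against 167 and 3 of the fallen ones. Among the risen genes 70 had under 10 counts at 26 h, and 82 were at 0 counts at 24 h or 32 h, so that their folds depend on the prior count.

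Collagens of body shape carried much of the rise. These are cuticle collagens, most of them with short, rolling or long mutants. Of the 14 tested outside the furrow group 11 rose (78.6%), while 0 fell. Their median change was 2.89 log2 in the first step and 3.51 in the second, against 0.00 and 0.03 over all tested genes, and their summed level went from 3972 to 36985 CPM and from 3391 to 47560 CPM. dpy-5 (WBGene00001067), a collagen gene with short mutants, had 503 CPM at 24 h, 6693 at 26 h, 318 at 32 h and 6410 at 34 h. The libraries after the step agree closely and lie more than 10-fold above those before it (changes 3.73 and 4.33 log2, fitted change 4.05 ± 0.19 log2 (SE), adjusted p = 0.000134). dpy-13 (WBGene00001074), another such collagen gene, followed the same course, with 383, 5109, 245 and 4983 CPM (adjusted p = 0.000141). sqt-3, an essential collagen gene, had 927, 6777, 643 and 7161 CPM (adjusted p = 0.000288). rol-6, whose dominant allele makes worms roll, had 168, 1476, 99.3 and 1035 CPM (adjusted p = 2.19e-05). rol-1 also rose in both steps but from very different levels. It had 0.0543 CPM (1 count) at 24 h, 1.96 at 26 h, 37.6 at 32 h and 2355 at 34 h. dpy-4, sqt-1, sqt-2, rol-8, lon-3 and bli-2, the last a collagen gene of the adult cuticle's struts, complete the group that rose.

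The collagens of the annular furrows stood high in all 4 libraries of the step, and their course between libraries is not known. These are 6 collagens that mark the circumferential grooves of the cuticle, and 0 of 6 were called in either direction. Their median change was 0.12 log2 in the first step and 0.54 in the second, and their summed level was 3561 and 3997 CPM in the first step and 2350 and 3420 in the second. dpy-7 (WBGene00001069) had 625 CPM at 24 h, 705 at 26 h, 452 at 32 h and 616 at 34 h (adjusted p = 0.125). In the same 8 h its level was far lower, with 35.4 CPM at 28 h and 15.6 at 30 h. dpy-10 had 647, 655, 470 and 567 CPM (adjusted p = 0.458). dpy-8 had 454, 677, 248 and 560 CPM. Its change was 1.18 log2 in the second step but 0.58 in the first, which was under the minimum of 1 (adjusted p = 0.0169). Whether furrow and other shape collagens differ was not tested.

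**Figure D2:**
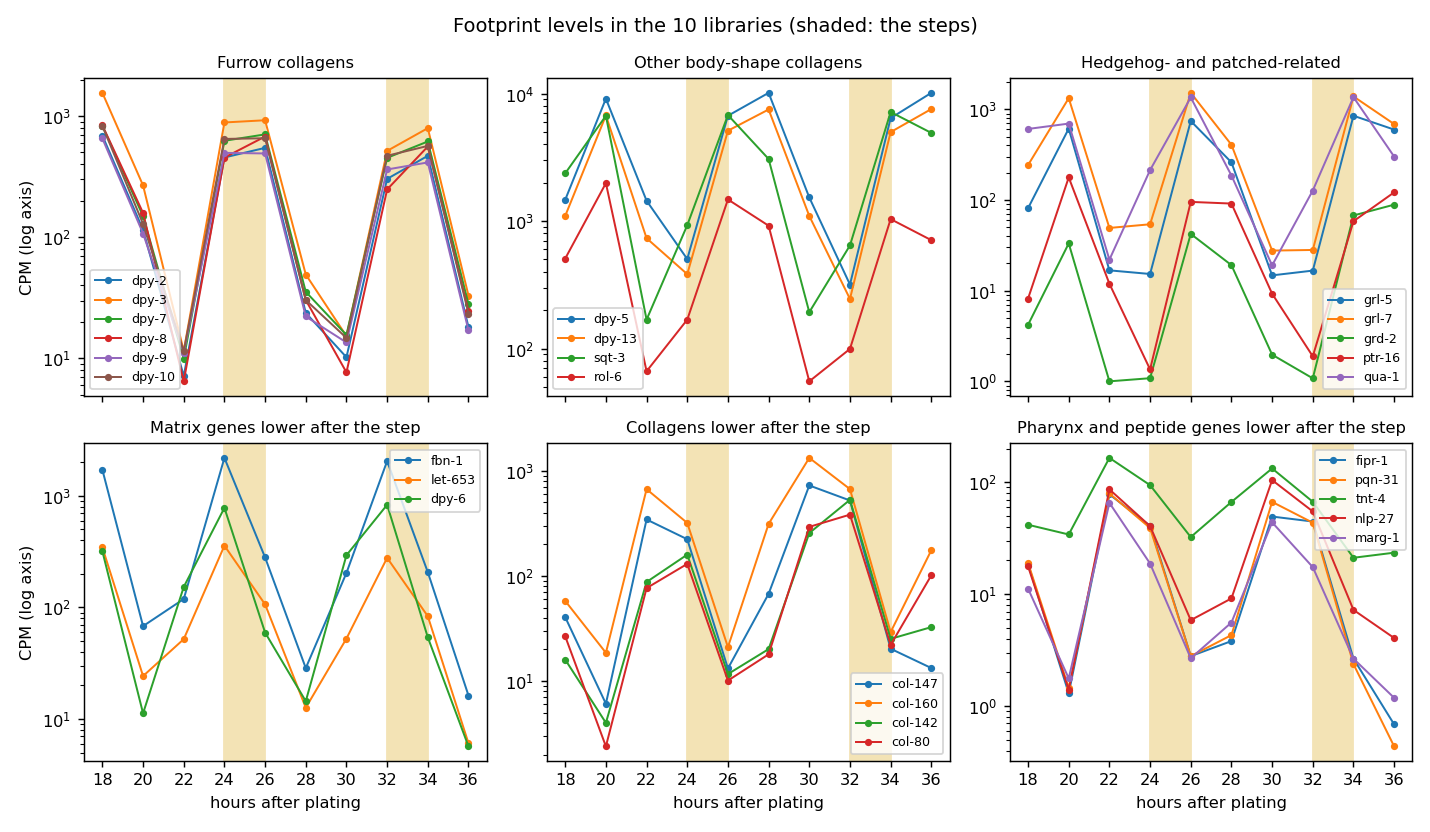
Footprint level (CPM, log axis) of single genes in all 10 libraries from 18 h to 36 h, with the 24 h to 26 h and 32 h to 34 h steps shaded and 1 panel per group of genes. dpy-5 goes from 503 to 6693 and from 318 to 6410 CPM, dpy-7 stays between 452 and 705 CPM in the 4 libraries of the step, and col-147 goes from 223 to 13.2 and from 522 to 20.3 CPM.

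The large col family, whose products are further cuticle collagens, divided. Of 123 tested, 34 rose (27.6%) and 22 fell (17.9%), both above the share over all genes. Several col genes are near-identical copies, and the sources used here do not say how reads matching more than one gene were treated. col-111 rose from 4.83 to 175.3 and from 3.69 to 116 CPM (adjusted p = 1.43e-05). col-173 rose from 6.30 to 176 and from 3.83 to 108 CPM (adjusted p = 1.43e-05), and col-73 from 205 to 2915 and from 257 to 5454 CPM (adjusted p = 8.25e-05). In each of these the later libraries were above the earlier ones by more than 10-fold at both repeats. col-147 (WBGene00000720) fell from 223 CPM at 24 h to 13.2 at 26 h, and from 522 at 32 h to 20.3 at 34 h (-4.07 and -4.68 log2, fitted change -4.37 ± 0.19 log2 (SE), adjusted p = 4.93e-05). col-160 fell from 319 to 21.03 and from 669 to 29.2 CPM. col-142 fell from 159 to 11.7 and from 529 to 25.2 CPM, and col-80 from 130 to 10.1 and from 383 to 22.1 CPM. In the list of collagen modification and cross-linking 1 of 15 genes rose and 0 fell. That one, bli-5, is no such enzyme: it encodes a Kunitz-type protease inhibitor needed for the cuticle and had 2.66, 9.34, 2.34 and 12.62 CPM. pdi-2, which helps to fold and hydroxylate collagen chains, had 8016, 8781, 8052 and 11080 CPM (adjusted p = 0.119).

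The precuticle and the secreted matrix gave calls in both directions. Of 14 tested genes of the apical precuticle 1 rose and 2 fell. fbn-1 (WBGene00022816), which encodes a fibrillin-like protein of the epidermal matrix, fell from 2188 to 280 CPM and from 2048 to 207 CPM (fitted change -3.12 ± 0.14 log2 (SE), adjusted p = 2.39e-05). let-653, a zona pellucida protein of the precuticle, fell from 358 to 106 and from 278 to 83.3 CPM (adjusted p = 0.000139). dpy-6, which encodes a mucin-like protein, fell from 780 to 59.5 and from 831 to 53.9 CPM (adjusted p = 1.66e-05). In all 3 the libraries before the step were above those after it with no overlap, which the rule for a call makes likely. noah-1, another zona pellucida protein of the precuticle, had 3809, 4488, 2504 and 3493 CPM and was not called (adjusted p = 0.0628). lpr-7, a lipocalin-related gene, rose from 3.80 to 29.1 and from 3.60 to 11.8 CPM (adjusted p = 0.0137). Of 32 cuticlins and cuticlin-like genes, 9 rose and 2 fell. cut-2, a component of the insoluble cuticle, rose from 139 to 2482 and from 68.8 to 862 CPM (adjusted p = 3.39e-05).

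Genes that moulting needs rose as a group in count: 10 of 19 tested (52.6%), while 0 fell. Their median changes were 1.02 and 1.08 log2. mlt-10 (WBGene00015646), a moulting gene of the epidermis, had 56.9 CPM at 24 h, 1360 at 26 h, 39.6 at 32 h and 1207 at 34 h (4.58 and 4.93 log2, fitted change 4.77 ± 0.15 log2 (SE), adjusted p = 1.56e-05). nas-37, an astacin protease that helps to free the old cuticle, rose from 93.6 to 419 and from 62.0 to 393 CPM (adjusted p = 0.000173). nas-36, its partner in moulting, rose from 2.55 to 28.97 and from 3.38 to 29.8 CPM (adjusted p = 4.75e-05). mlt-11, a protease inhibitor, stood high before and after, with 3658, 4384, 2368 and 3898 CPM (adjusted p = 0.051). Over the 25 astacins tested, 8 rose and 3 fell. nas-15 rose from 11.2 to 173 and from 4.46 to 81.6 CPM (adjusted p = 1.56e-05).

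Hedgehog-related ligands gave one of the densest groups of calls. Caenorhabditis elegans has no Hedgehog itself but many secreted relatives of the wrt, grd, grl and qua classes, and a large set of Patched-related membrane proteins. Of 40 ligands tested 22 rose (55.0%) and 5 fell (12.5%), with median changes of 2.25 and 2.63 log2. grl-5 (WBGene00001714) had 15.3 CPM at 24 h, 744 at 26 h, 16.7 at 32 h and 850 at 34 h, a change of 48.3-fold and 50.8-fold (fitted change 5.65 ± 0.14 log2 (SE), adjusted p = 1.43e-05). Both repeats started and ended at nearly the same level. grl-7 rose from 54.1 to 1521 and from 28.2 to 1388 CPM (adjusted p = 0.000546). qua-1, a ligand needed for moulting, rose from 214 to 1354 and from 127 to 1364 CPM (adjusted p = 0.00126). Other ligand genes went the other way. grd-3 fell from 48.9 to 3.84 and from 112 to 8.80 CPM (adjusted p = 1.56e-05), and grd-10 from 54.3 to 4.82 and from 74.5 to 4.38 CPM (adjusted p = 5.62e-05). Of 28 Patched-related genes 10 rose and 5 fell. ptr-18 rose from 14.6 to 241 and from 6.76 to 116 CPM (adjusted p = 1.46e-05). ptc-3, one of the Patched homologues, rose from 126 to 720 and from 112 to 524 CPM (adjusted p = 6.23e-05).

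Genes switched on were those that rose from at most 2 CPM at 24 h and 32 h to at least 10 CPM at 26 h and 34 h, with limits set on CPM as scaled within the 4 libraries. There were 41 (0.301% of tested genes), and 16 have a gene-class name. They reached 10.4 to 95.4 CPM after the step, and the smaller of the 2 changes ran from 2.56 to 5.49 log2. ptr-16, Patched-related, had 1.36 CPM at 24 h, 95.4 at 26 h, 1.89 at 32 h and 58.4 at 34 h. mab-7, which encodes a membrane protein that shapes the sensory rays of the male tail, had 1.14, 68.3, 1.67 and 38.7 CPM. The ligand gene grd-2 had 1.09, 42.3, 1.08 and 67.6 CPM, and dos-2, which encodes a protein of the Notch co-ligand kind, had 0.326, 15.2, 0.541 and 39.6 CPM. cpg-19, a chondroitin proteoglycan gene, went from 0.380 to 21.7 and from 0.315 to 17.8 CPM. In these 5 genes the libraries before the step lay below 2 CPM, as the rule requires, and those after it above 15, where the rule requires 10. acdh-6, an acyl-CoA dehydrogenase gene, cht-1, a chitinase gene, the astacin nas-14 and the collagens col-62, col-131 and col-172 were also switched on. Genes switched off, by the mirrored limits, numbered 9 (0.0661%), at 10.7 to 27.1 CPM before the step. Of these ttr-21, transthyretin-related, and fip-2, a fungus-induced protein, have a gene-class name. ttr-21 had 16.8, 1.49, 13.2 and 1.85 CPM, and fip-2 had 12.7, 1.67, 15.0 and 1.81 CPM.

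Genes of the pharynx moved both ways. The abu and pqn genes were grouped by class name, as a list that holds proteins of the pharyngeal lining, and 9 of 52 rose while 9 fell. Not every pqn gene need belong to the pharynx. The most abundant, pqn-59, had 1177, 973, 991 and 914 CPM and was not called (adjusted p = 0.343). pqn-32 rose from 49.3 to 881 and from 34.9 to 952 CPM (adjusted p = 6.37e-05). pqn-31 fell from 39.0 to 2.80 and from 43.5 to 2.37 CPM (adjusted p = 2.19e-05). Disordered pharyngeal proteins and the related fipr genes gave 9 higher and 13 lower of 37. fipr-1 fell from 40.8 to 2.80 and from 44.6 to 2.65 CPM (adjusted p = 1.94e-05). Many of these genes are short and alike, so counts may be shared between copies. Of 8 phat genes, mucin-like products of the pharyngeal glands, 2 rose and 4 fell. phat-2 rose from 13.7 to 100 and from 10.5 to 61.4 CPM (adjusted p = 3.64e-05), and phat-7 fell from 198 to 32.7 and from 165 to 39.4 CPM (adjusted p = 0.000271). In the pharyngeal muscle list 3 of 8 genes fell, namely marg-1 (-2.77 and -2.68 log2), tnt-4 and tnc-2. The troponin T gene tnt-4 fell from 94.2 to 32.4 and from 66.9 to 21.1 CPM (adjusted p = 0.000159), and the troponin C gene tnc-2 from 46.6 to 18.6 and from 34.2 to 13.03 CPM (adjusted p = 0.00045). The other 5 were not called, among them the myosin gene myo-1 (-0.09 and -0.47 log2). Of 23 sarcomere genes of the body wall 0 were called, with medians of -0.13 and 0.00 log2. The body-wall myosin gene unc-54 had 5397, 7204, 7829 and 7529 CPM. Whether both muscle lists differ was not tested.

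Detoxification and transport genes that were called were mostly lower. Of the P-glycoproteins, ATP-driven export pumps, 0 of 13 rose and 4 fell. pgp-5 fell from 38.5 to 3.30 and from 16.04 to 1.93 CPM (adjusted p = 6.58e-05). Of 59 UDP-glucuronosyltransferases, which conjugate sugars to foreign and endogenous molecules, 2 rose and 8 fell. ugt-13 fell from 56.5 to 7.59 and from 56.8 to 11.8 CPM (adjusted p = 0.000408). Of 38 glutathione transferases 0 rose and 5 fell, and of 48 transthyretin-related genes 3 rose and 8 fell. ttr-8 fell from 77.0 to 8.48 and from 77.9 to 11.1 CPM (adjusted p = 3.25e-05). Cytochrome P450 genes gave 5 higher and 2 lower of 49. Epidermal antimicrobial peptide genes gave 2 higher and 4 lower of 14. nlp-27 fell from 40.5 to 5.86 and from 54.8 to 7.24 CPM (adjusted p = 2.75e-05), while nlp-33 rose from 57.6 to 156 and from 67.2 to 241 CPM (adjusted p = 0.000369). Of 16 basement membrane genes 3 fell. They were lam-3, a laminin chain, fbl-1, a fibulin, and pxn-2, a peroxidasin.

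**Figure D3:**
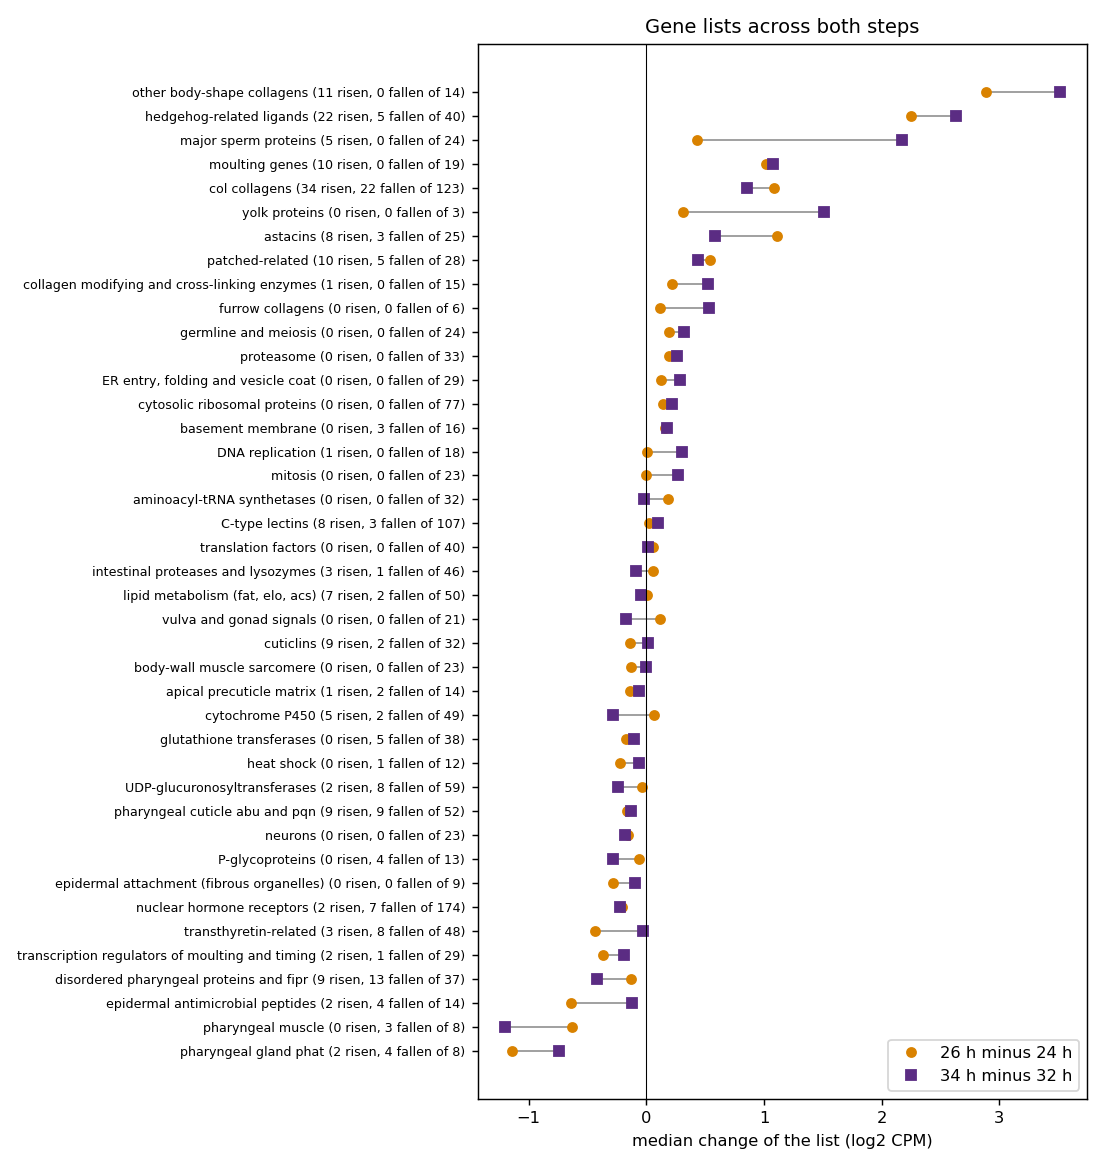
For each gene list, the median change of its tested genes (log2 CPM) from 24 h to 26 h and from 32 h to 34 h. The other body-shape collagens stand at 2.89 and 3.51 and the Hedgehog-related ligands at 2.25 and 2.63, above the other lists, and the pharyngeal muscle list stands at -0.63 and -1.20.

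Among 29 regulators of moulting and developmental timing 2 rose (6.90%) and 1 fell (3.45%), close to the 5.49% and 3.64% over all tested genes. bed-3, a zinc finger gene needed for moulting, rose from 6.57 to 66.4 and from 2.70 to 32.8 CPM (adjusted p = 2.19e-05). nhr-41, a nuclear hormone receptor gene, rose from 20.8 to 81.7 and from 15.0 to 62.0 CPM (adjusted p = 6.58e-05). nhr-91 fell from 77.6 to 31.3 and from 40.0 to 19.5 CPM (adjusted p = 0.00107). In all 3 the libraries before and after did not overlap, which again the rule for a call makes likely. grh-1, the Grainyhead transcription factor gene, had 79.99, 153, 39.3 and 105 CPM and missed the minimum size in the first step (0.94 and 1.41 log2, adjusted p = 0.0025). nhr-23, a nuclear hormone receptor gene needed for moulting, had 68.1, 18.8, 61.8 and 34.7 CPM (adjusted p = 0.0817). lin-42, the worm's period homologue, had 212, 237, 129 and 220 CPM (adjusted p = 0.118).

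Several timing genes changed in one repeat by more than 1 log2 and less in the other, and none of these was called. nhr-25 had 11.5 CPM at 24 h and 46.0 at 26 h, then 4.24 and 3.98 at 32 h and 34 h (1.99 and -0.09 log2, adjusted p = 0.474). nhr-85 had 43.9 and 28.4 CPM, then 34.6 and 3.06 (-0.63 and -3.46 log2, adjusted p = 0.534). lin-41, which encodes an RNA-binding protein of the heterochronic pathway, had 48.2 and 13.03 CPM, then 6.49 and 6.43 (adjusted p = 0.468). daf-12, the receptor gene for dafachronic acid, had 49.6 and 18.3, then 11.1 and 10.97 CPM (adjusted p = 0.427). A test of the difference between the steps, added as 1 more column to the 10-library model (edgeR's quasi-likelihood test, 3 residual degrees of freedom), called 0 of 13615 genes, with 163 at an unadjusted p under 0.05. The lowest adjusted p was 1, which these 4 genes share, so a difference between the repeats was not shown for any of them.

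Intestinal proteases and lysozymes gave 3 higher and 1 lower of 46. cpr-6, a cathepsin B-like protease gene, rose from 268 to 1177 and from 326 to 1318 CPM (adjusted p = 6.37e-05). spp-13, a saposin-like gene, rose from 9.55 to 102 and from 4.91 to 96.3 CPM (adjusted p = 0.00141). Of 50 lipid genes 7 rose and 2 fell, and lips-9, a lipase-related gene, went from 1.79 to 102 and from 2.30 to 64.4 CPM (adjusted p = 0.000369). The ribonucleotide reductase gene rnr-2, which supplies DNA building blocks, was the 1 of 18 replication genes that rose, from 123 to 265 and from 67.9 to 157 CPM (adjusted p = 0.000749).

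In 13 of the 41 lists, with 343 tested genes, 0 genes were called in either direction by the 4-library fit. Among them are 77 cytosolic ribosomal proteins (medians 0.14 and 0.21 log2), 33 proteasome subunits (0.19 and 0.26), 29 genes of the secretory pathway (0.13 and 0.29) and 24 germline genes (0.19 and 0.32). With total counts alone these medians would move down with those of all genes. Of the larger families, C-type lectins gave 8 higher and 3 lower of 107 and nuclear hormone receptors 2 higher and 7 lower of 174. Of 12 heat shock genes 0 rose and 1, hsp-43, fell. Major sperm proteins gave 5 higher of 24. Their genes are near-identical and were almost unread in the first step: summed over the list they had 0.05 and 1.22 CPM at 24 h and 26 h, then 214 and 973 at 32 h and 34 h. msp-64 was at 0 counts at 24 h and at 0.119 CPM at 26 h.

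The libraries around the step show where the called genes stand in the 8 h cycle. The genes that rose held 14.4% of counts at 20 h, 12.2% at 28 h and 16.3% at 36 h, so that their share was still as high or higher 2 h after the step, and 3.26% at 22 h and 3.01% at 30 h. In the next 2 h, 120 of the 748 went up by at least 1 log2 at both repeats, 99 went down and 252 stayed within 1 log2. The other 277 did not do the same at both repeats. Of the risen genes 372 had their highest level at 34 h or 36 h, 212 at 20 h, 89 at 26 h and 50 at 28 h. qua-1, for example, was at 186 CPM at 28 h, and cut-2 at 8689. Of the 496 genes that fell, 303 had their highest level at 22 h or 30 h and 152 at 24 h or 32 h.

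The 18 h library has the place of 26 h and 34 h in an 8 h cycle, but in the median called gene it stood between the start and the end of the step. On a log2 scale where the mean of 24 h and 32 h is 0% and the mean of 26 h and 34 h is 100%, the median risen gene lay at 45.1% at 18 h, with quartiles of 4.93% and 68.1%. The median fallen gene lay at 49.4%. Of the risen genes 447 of 748 lay at 18 h between all libraries before and all after the step, and of the fallen 301 of 496. grl-5 had 81.3 CPM at 18 h, against 15.3 and 16.7 before the step and 744 and 850 after it. fbn-1 had 1710 CPM at 18 h, near its level before the step. The called genes were chosen by their change among the 4 libraries of the step, and a library left out of that choice can fall between them for this reason alone. The position was not measured for another library or for genes not called. What places the 18 h library there was not tested.

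**Figure D4:**
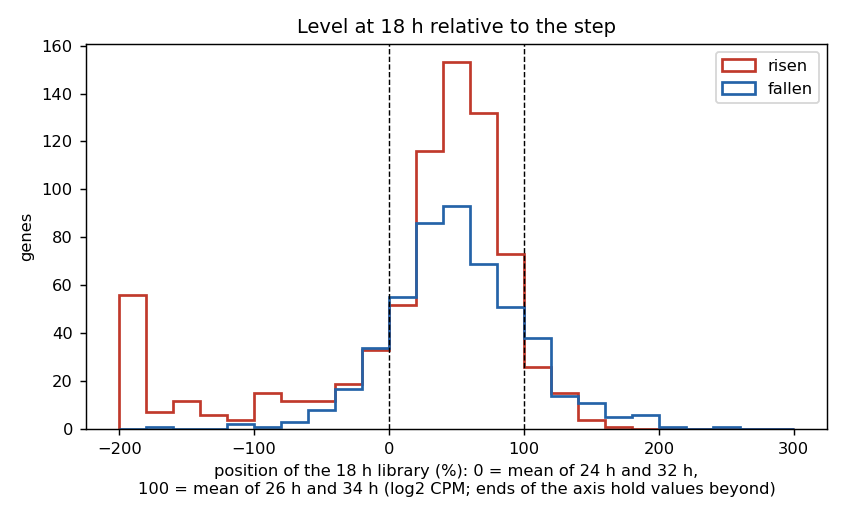
Number of genes by their position at 18 h, in percent of the way from the mean of 24 h and 32 h (0%) to the mean of 26 h and 34 h (100%) on a log2 scale, for the 748 genes called higher and the 496 called lower. The medians are 45.1% and 49.4%.

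A few genes went in opposite directions at the repeats. col-41 went from 90.0 to 2328 CPM in the first step and from 31.2 to 10.8 in the second. col-175 was near 0 in the first step, with 6 counts at 24 h and 3 at 26 h, and went from 43.3 to 2103 CPM in the second. col-145 had 19.2 and 109 CPM, then 328 and 51.0. These genes were chosen for at least 2 log2 up at 1 repeat and at least 1 log2 down at the other. The rule also asked for a gene-class name and at least 10 CPM in 1 of the 4 libraries. None of the differences passed the test of the difference between the steps (adjusted p = 1 for each).

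**Figure D5:**
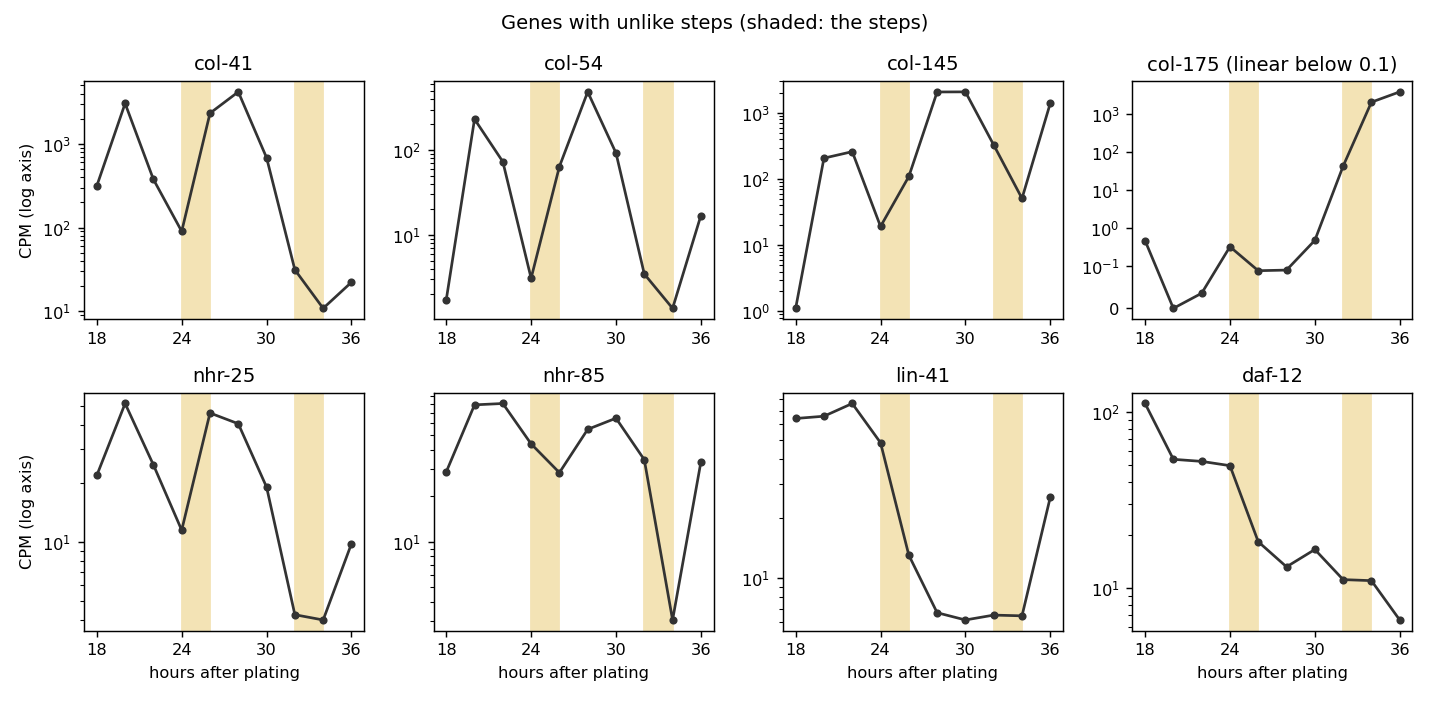
Footprint level (CPM, log axis) by hours after plating in the 10 libraries, with the steps shaded, for collagens that changed by at least 1 log2 in opposite directions at the repeats (upper row; the col-175 axis is linear below 0.1) and for timing genes that changed by over 1 log2 at 1 repeat alone (lower row). col-41 reaches 2328 CPM at 26 h and 10.8 at 34 h, and col-175 reaches 0.0892 CPM at 26 h and 2103 at 34 h.

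Genes that were called lay beside each other in some places. Of 13245 pairs of adjacent tested genes in the Ensembl annotation (WBcel235), both members rose in 81, both fell in 56 and the members went opposite ways in 72. A risen neighbour was found for 152 of 726 placed risen genes, and a fallen one for 102 of 492 fallen genes. The share of all placed genes with such a neighbour was not counted, so these numbers do not show grouping. One run on chromosome II held 5 risen genes, mpst-4, col-17, col-20, col-73 and F11G11.13. On chromosome V, 6.27% of tested genes rose and 6.81% fell, against 4.07% and 1.58% on chromosome I. Adjacent copies can share reads, and no test was made of either pattern.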

How the data were processed

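Per the labels, monosomes of whole worms were purified and RNA of about 28 to 30 nucleotides was cut from a gel. Bowtie, without a version, appears in the submitters' processing notes. Build, annotation and counting rule were not stated in what was used here, and coordinates are left out. The authors deposited raw counts of footprints per gene and normalized values. The deposited normalized values are log2 of counts scaled to the mean total with 8 added (largest difference 5e-05) and were not used further. Symbols were found for 18778 of 20182 identifiers.

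A gene was tested when at least 2 of the 4 libraries of the step reached the CPM that equals 10 counts in the library of median size. The main model was edgeR's quasi-likelihood test on 10 libraries with TMM factors (0.874 to 1.10 in the 4 libraries), with the place in the cycle (hour modulo 8, 4 levels) and the cycle (18 to 22 h, 24 to 30 h, 32 to 36 h) as terms, leaving 4 residual degrees of freedom. A call needed an adjusted p under 0.05 (Benjamini-Hochberg over all tested genes) and at least 1 log2 in each step. The same model on the 4 libraries alone was a listed alternative. The report describes its calls because the main model called 5 genes, a choice made after the counts of calls were seen. P-values measure spread between single libraries, which may be technical.

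Members and gene lists (41, with 1439 tested genes, 16 in more than 1 list and 14 names not found) were chosen with earlier results of these data known. Genes named are the largest changes with a gene-class name, the regulators, tissue markers, and up to 3 called members per list with its most abundant member. Among genes switched on or off, the rule took the most abundant ones with a gene-class name. Others were named after their values were seen, to fill a list or describe a run. On simulated data for the 13615 genes, the 10-library fit called 20%, 94%, 100% and 100% of changes of 1, 2, 3 and 4 log2, with 4 false among 161 calls. The 4-library fit called 26%, 100%, 100% and 100%, with 4 false among 167. The test of the difference between the steps was added after the data had been seen. On simulated data for the same genes it called 4%, 30%, 96% and 80% of differences of 1, 2, 4 and 6 log2, with 6 false among 111 calls. In all these simulations the genes were level across the libraries apart from the changes put in, with no cycle. The shares called therefore need not hold for the real libraries. The tools were edgeR 4.0.16 and DESeq2 1.42.0 under R 4.3.3. Tables were made in Python 3.11.15 (pandas 2.3.3, numpy 2.4.6) and plots with matplotlib 3.10.9. Alternatives were other scalings, filters, DESeq2, other cycle terms, sizes and prior counts, thinned counts and leaving out each library.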

Additional observations from a re-analysis of the deposited data

Results flagged for a closer look

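Some genes with a gene-class name went up by at least 2 log2 at 1 repeat of the step and down by at least 1 log2 at the other. Only genes with at least 10 CPM in 1 of the 4 libraries were taken. For each the value is the change from 32 h to 34 h minus the change from 24 h to 26 h, in log2. In the test of the difference between the steps, added to the 10-library model after the data had been seen (edgeR's quasi-likelihood test), each of them had an adjusted p of 1, so a difference between the repeats was not shown. Collagen genes that went up and then down were col-41 (-6.213), col-54 (-5.621), col-145 (-5.189) and col-2 (-4.071). The genes col-175 (6.831), nspd-10 (3.983) and cylc-1 (3.287) went down and then up, but their first change rests on few counts: 6 at 24 h and 3 at 26 h for col-175, and 2 at 24 h and 0 at 26 h for each of the others.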

How the results depend on the processing

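The fit of 10 libraries gave 5 genes higher, 0 lower, 0 switched on and 0 switched off. In the same order, the 4 libraries of the step alone gave 748, 496, 41 and 9, and DESeq2 gave 552, 308, 40 and 7. Genes higher numbered 1 with total counts alone, 3 with linear time in place of the cycle, 0 with neither term and 1 with at least 2 log2. Thinned counts gave 1 lower. Leaving out 1 library gave 0 to 523 higher, 0 to 218 lower, 0 to 40 switched on and 0 to 6 switched off. The highest values came without 18 h; without 28 h there were 152 higher and 202 lower, and without 20 h 27 and 23. The 4-library fit gave 0 of each with no cycle term, also without any one of its libraries. Without a minimum size it gave 1494 higher and 1031 lower, and at 2 log2 366 and 166. Limits of 1 and 20 CPM left 2 genes switched on and 0 off. Its total-count version shared 653 of 748 and 495 of 496 calls, and its DESeq2 version 547 and 324. The alternatives of the 4-library fit were chosen after seeing the data. The correlation of the steps was 0.652 with no filter on low counts. The cause of these differences was not tested. The labels give no replicate numbers to pair by; pairing within a cycle, 24 h with 26 h and 32 h with 34 h, is what the cycle term does.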
